A study of Mus musculus with 8 samples.

Results

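The Hox genes encode homeodomain transcription factors that lie side by side in 4 clusters, HoxA to HoxD. They were chosen as the protein-coding genes of the mm9 mouse annotation whose symbol is Hoxa, Hoxb, Hoxc or Hoxd followed by a number. The genes described are 38 of 22236 protein-coding gene symbols, with 10 genes in HoxA, 10 in HoxB, 9 in HoxC and 9 in HoxD. No measured value was used to choose them.

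Hox genes set the identity of body segments along the head-to-tail axis of the embryo, and within a cluster their order follows the order in which they are switched on. Genes at the same place in different clusters are paralogs and form a paralog group. In adult blood cells some HoxA genes are used by stem and progenitor cells, with cofactors of the TALE homeodomain family, and are switched off in most mature cells. Trithorax and MLL complexes write trimethylation of lysine 4 on histone H3 (H3K4me3), a mark of active and poised promoters, whereas Polycomb complexes keep silent clusters closed.

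The study mapped H3K4me3 and the transcription factor NFATc2 (NFAT1) by ChIP-seq in D1 cells, a growth factor-dependent line of long-term splenic dendritic cells (DCs) from C57BL/6 mice. H3K4me3 was measured in cells left untreated (NT), in cells given 10 μg/ml curdlan for 2 h, and in cells given curdlan with FK506 for the same time. Curdlan, a fungal-type β-glucan, signals through the receptor dectin-1, and FK506 blocks calcineurin, the phosphatase that activates NFAT; the dose of FK506 in these libraries is not given in the labels. NFATc2 was measured after 30 min of 10 μg/ml curdlan in a D1 line stably carrying V5-tagged NFATc2, so its list describes a tagged, added protein at an earlier time than the histone mark. All libraries came from the same cell line and there was 1 ChIP library and 1 input per condition, so the spread between replicates is unknown, no test between conditions was made, and every interval below covers counting error only.

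The file headers gave 16662316 ChIP tags in NT cells, 21289349 with curdlan and 19468498 with curdlan and FK506, and the lists held 15799, 14872 and 14878 H3K4me3 peaks. The ChIP library was 1.38, 2.29 and 1.96 times as deep as its input. The NFATc2 list held 9438 peaks from 14377535 tags. Of 18 DC marker genes, 17 had an H3K4me3 peak within 1 kb of a transcription start site (TSS) in each list, the exception being Flt3. Of 10 progenitor markers, Cd34, Gata2 and Meis1 had one, and of the markers of other cells Lck (of 8 for T cells) and Cdh1 (of 8 for epithelial cells) did, with 0 of 12 for fibroblasts and 0 of 7 for B cells. Of all protein-coding genes, 49.0% had such a peak in NT cells, 48.9% with curdlan and 48.8% with curdlan and FK506. The markers did not go against the labelled cell type.

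A Hox gene was called marked when an H3K4me3 peak came within 1 kb of any of its annotated TSSs. In NT cells 5 of the 38 genes were marked, which is 13.2% (95% Wilson interval 5.75 to 27.3), against 49.0% of all protein-coding genes. With curdlan 7 were marked (18.4%, interval 9.22 to 33.4) against 48.9% of all genes. With curdlan and FK506 5 were marked (13.2%) against 48.8% of all genes. The marked genes were Hoxa3, Hoxa6, Hoxa7, Hoxa13 and Hoxc6 in all 3 lists, joined by Hoxa9 and Hoxa10 with curdlan. The other 31 genes had no peak within 1 kb in any list. They comprised Hoxa2, Hoxa4, Hoxa5 and Hoxa11, every HoxC gene other than Hoxc6, and all HoxB and HoxD genes. Of 13 paralog groups, 6 had a marked member, and only group 6 had more than 1, namely Hoxa6 and Hoxc6.

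The median marked Hox gene also carried fewer tags than the median marked gene. Tags were scaled to 1000000 ChIP tags of the library (tags per 1000000, RPM). The median of the marked Hox genes was 17.9 RPM in NT cells, 14.9 with curdlan and 15.4 with curdlan and FK506, whereas the median over all marked protein-coding genes was 46.2, 42.7 and 41.3. A gene without a peak is not known to have no mark, because the lists hold only regions past the peak caller's p-value threshold of 1e-05. The smallest listed H3K4me3 peaks held 18, 26 and 23 tags in the 3 lists.

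**Figure D1:**
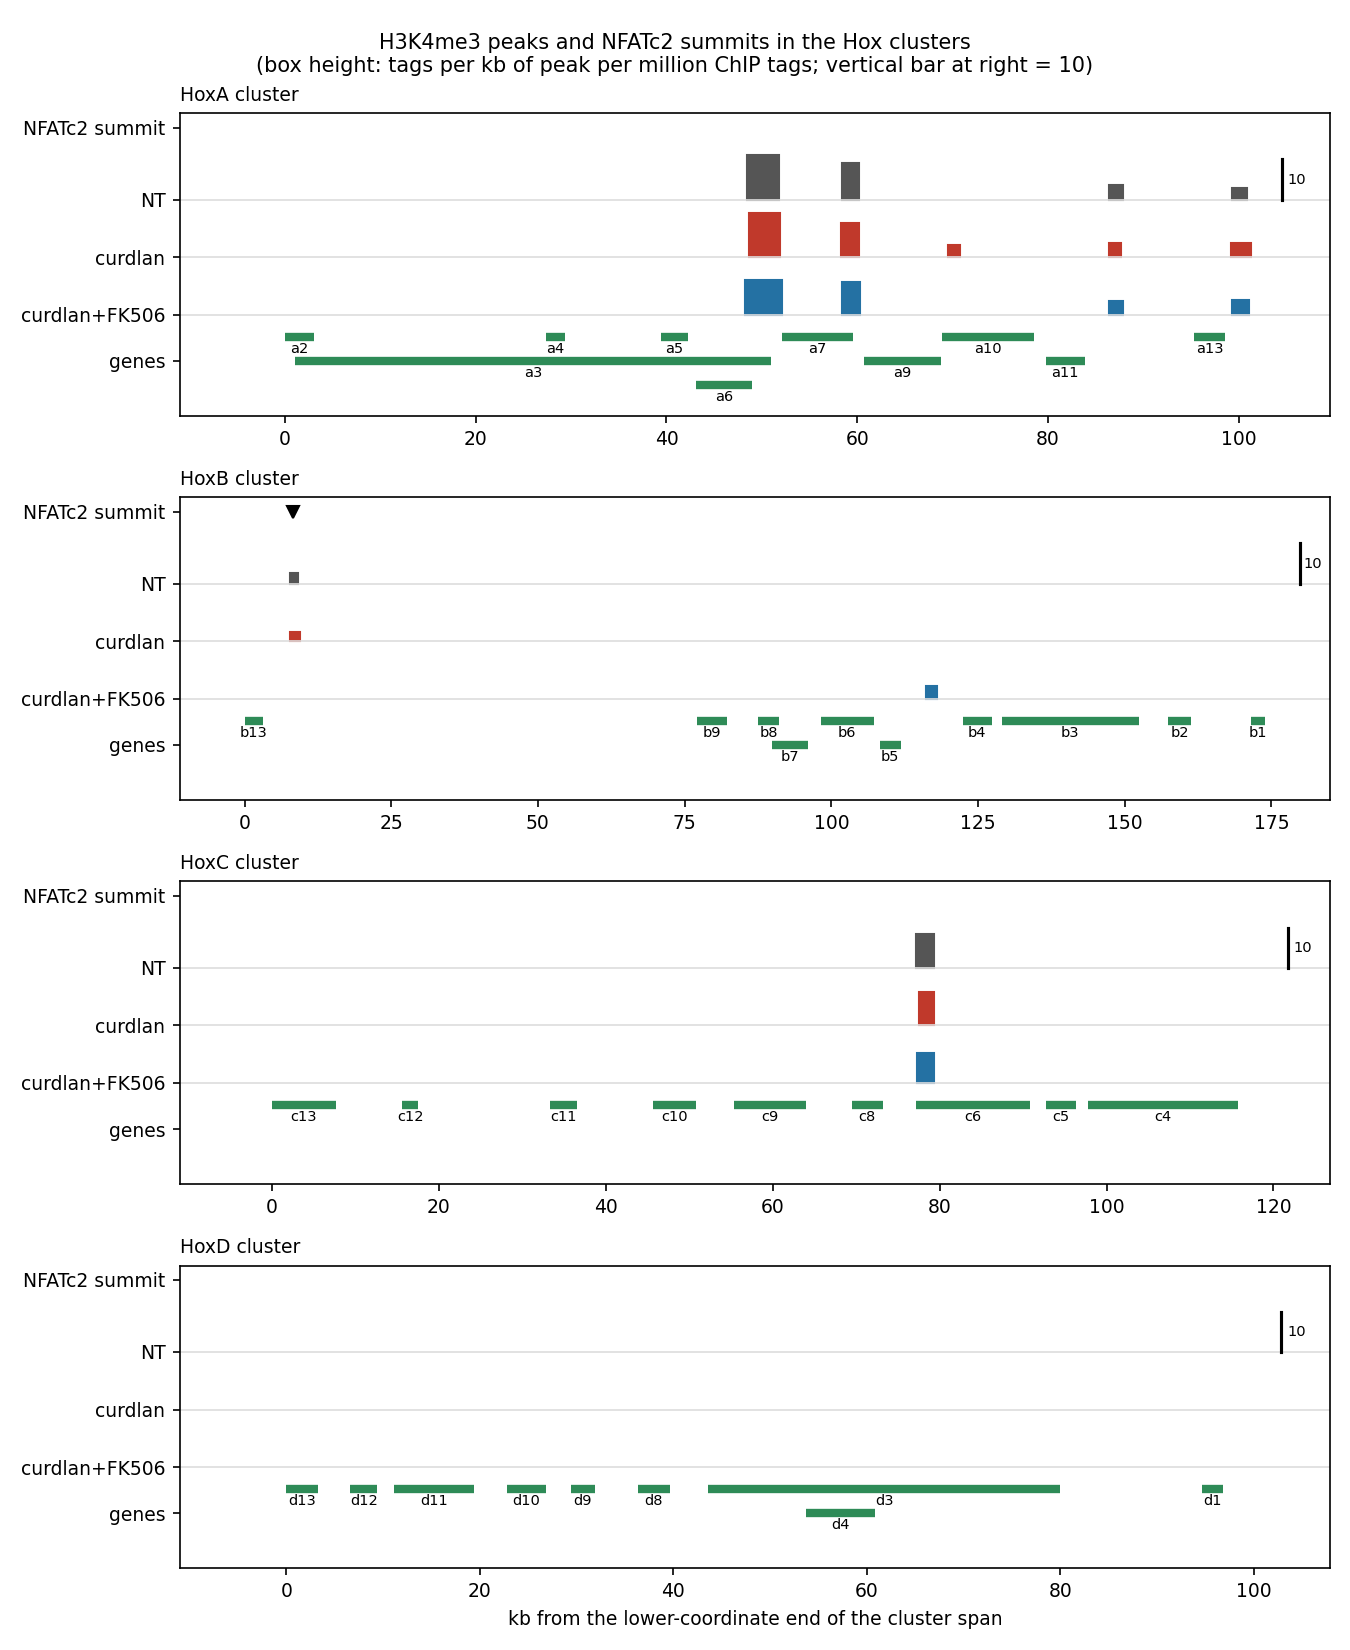
Positions of H3K4me3 peaks and NFATc2 summits in each Hox cluster, in kb from the lower-coordinate end of the cluster. Box width is peak length, box height is RPM per kb of peak, green bars are genes and the triangle is the NFATc2 summit. Peaks outside a span are drawn only if within 1 kb of a Hox TSS. Peaks stood mainly in HoxA, 1 stood at Hoxc6, and the HoxD span was empty in all lists.

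The promoters of 3 of the 4 genes of paralog group 13 are shown because they include a marked gene and an unmarked one that are both rich in CG. Hoxa13 was marked in all 3 lists, and its paralogs Hoxb13 and Hoxd13 in none. The other member, Hoxc13, was also unmarked, with an observed over expected CpG ratio of 0.70 around its TSS, and its promoter is not printed. The sequences below are the 200 bases before the most upstream annotated TSS in mm9, read 5′ to 3′ on the gene's own strand, at chr6:52210875-52211074 (minus strand) for Hoxa13, chr11:96055430-96055629 (plus strand) for Hoxb13 and chr2:74506167-74506366 (plus strand) for Hoxd13. Capitals mark CG dinucleotides, which are dense in CpG islands, the promoter type on which H3K4me3 is usually found.
Hoxa13: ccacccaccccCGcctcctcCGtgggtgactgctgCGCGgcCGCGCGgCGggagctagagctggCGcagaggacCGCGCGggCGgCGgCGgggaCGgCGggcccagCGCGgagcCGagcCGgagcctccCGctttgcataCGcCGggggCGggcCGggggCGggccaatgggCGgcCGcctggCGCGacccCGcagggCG
Hoxb13: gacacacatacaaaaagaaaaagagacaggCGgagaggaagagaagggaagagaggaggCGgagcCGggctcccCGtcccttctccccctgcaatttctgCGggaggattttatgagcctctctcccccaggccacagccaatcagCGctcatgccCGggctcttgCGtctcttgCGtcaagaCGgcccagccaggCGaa
Hoxd13: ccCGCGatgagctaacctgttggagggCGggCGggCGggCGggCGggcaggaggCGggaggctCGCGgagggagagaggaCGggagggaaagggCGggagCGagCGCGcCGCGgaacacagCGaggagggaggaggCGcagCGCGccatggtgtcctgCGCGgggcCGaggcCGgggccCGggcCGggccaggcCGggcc
The window held 33 CG dinucleotides at Hoxa13, 11 at Hoxb13 and 28 at Hoxd13. Hoxd13, which shapes the digits, thus lacked a peak although its count was nearer to that of Hoxa13 than to that of Hoxb13. The Hoxa13 peak lay further upstream and did not cover the window shown.

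CpG content was also alike over 82 distinct Hox TSSs, of which 14 lay within 1 kb of a peak in some list. The observed over expected CpG ratio in the 1001 bp around the TSS had a median of 0.62 at these 14 TSSs (range 0.46 to 0.95) and also of 0.62 at the other 68 (range 0.05 to 1.00). Over the TSSs of all protein-coding genes the median was 0.73 near a peak and 0.26 away from one. At a ratio of 0.6 or more, 83.3% of 28285 TSSs of all genes were near a peak, against 18.2% of the 44 Hox TSSs. The CpG-rich Hox TSSs near a peak were 8 of 21 in HoxA, 0 of 7 in HoxB, 0 of 5 in HoxC and 0 of 11 in HoxD. Among the CpG-rich genes without a peak were Hoxa5 (1.00), Hoxa4 (0.92) and Hoxd13 (0.91), and Hoxc6 was marked although its TSSs reached only 0.54. TSSs of a gene and of neighbouring genes share sequence, so these counts are not of independent promoters.

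**Figure D2:**
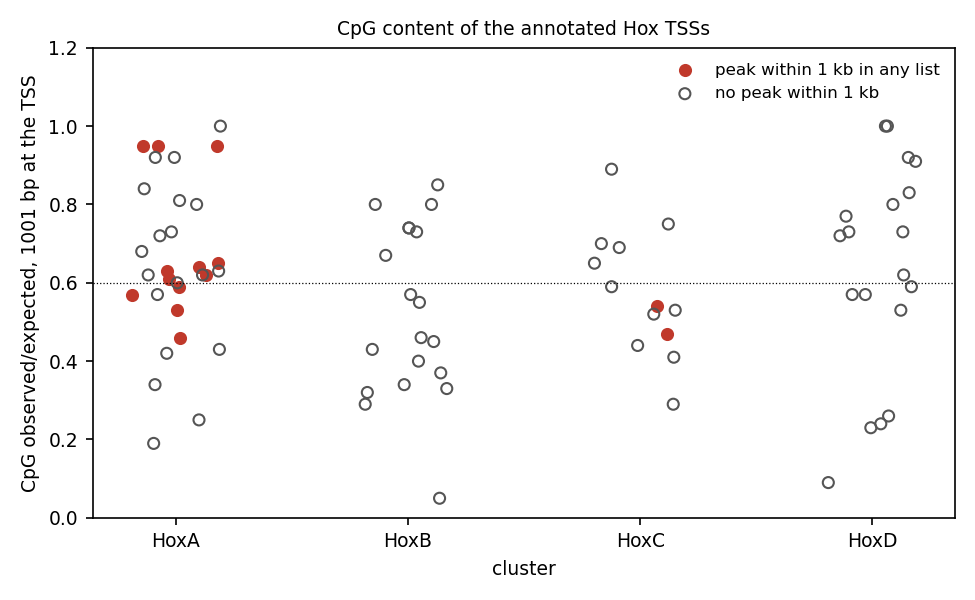
Observed over expected CpG ratio (y axis, no unit) in the 1001 bp around each annotated Hox TSS, by cluster, with sideways scatter added to separate the points. Filled points lay within 1 kb of an H3K4me3 peak in at least 1 list and open points did not, and the dotted line is the limit of 0.6. Open points reach 1.00 in HoxA and HoxD.

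HoxA carried most of the mark. The HoxA genes described span 98.5 kb at chr6:52112350-52210874, which held 3 H3K4me3 peaks in NT cells, 4 with curdlan and 3 with curdlan and FK506, covering 6.58 kb, 7.67 kb and 7.14 kb, or 6.67%, 7.78% and 7.25% of the span. They were a pair at the distal Hoxa3 TSSs and Hoxa7 and weak ones from Hoxa10 to Hoxa11, with a further weak one just past the span at Hoxa13. Past the other end, 1.49 to 1.60 kb from the span, a peak lay in all lists at the noncoding gene Gm15051. It held 288, 318 and 224 tags, or 17.3, 14.9 and 11.5 RPM, and was within 1 kb of no Hox TSS. Within the span, the longest stretch without a peak was 48.4 kb, 48.6 kb and 48.3 kb. It held Hoxa2, Hoxa4, Hoxa5, the coding TSS of Hoxa6 and the proximal TSSs of Hoxa3. Hoxa2 patterns the branchial arches and Hoxa5 the lung and thorax.

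The strongest Hox peak served both Hoxa3 and Hoxa6. At chr6:52160797-52164140 in NT cells, it held 624 tags in NT cells, 754 with curdlan and 650 with curdlan and FK506. In RPM these are 37.4 (34.6 to 40.5), 35.4 (32.9 to 38.0) and 33.4 (30.9 to 36.1), and the intervals of the 3 conditions overlapped. In order of tags it stood at percentile 62.2, 61.0 and 59.9 of all peaks in its list, so the strongest Hox peak was a middling peak of these cells.

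The peak covered the 3 distal TSSs of Hoxa3, at 52163066 to 52163338, with its summit within 53 bp of one of them. Hoxa3, needed for thymus and parathyroid formation, has 3 further TSSs nearer to its coding end, and these were 11790 to 24125 bp from any peak. Hoxa6 was marked only through the start of a noncoding transcript at 52161355. Its coding TSS at 52158721 was 1881 to 2231 bp from the peak. The mark was thus at a start region upstream of the coding TSS of Hoxa6, where the summit lay in Hoxa3 coding sequence and in an exon of the noncoding gene 2700086A05Rik on the opposite strand.

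Hoxa7 carried a peak of 277 tags in NT cells, 332 with curdlan and 300 with curdlan and FK506. In RPM these are 16.6 (14.7 to 18.7), 15.6 (14.0 to 17.4) and 15.4 (13.7 to 17.3), all overlapping. The summit lay in coding sequence, 240 to 264 bp downstream of the most upstream TSS of Hoxa7.

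Hoxa9 and Hoxa10, the members best known in blood progenitors and myeloid leukaemia, shared 1 peak that was called with curdlan alone. It held 88 tags, or 4.13 RPM (3.32 to 5.09), at chr6:52181839-52183155, with a p-value of 3.7e-10 and an FDR of 1.24% in the authors' list. Its tag count stood at percentile 6.56 of the curdlan list. Hoxa9 was marked near the edge of the rule, since the peak came within 751 bp of its most upstream TSS. Hoxa10 was marked only through noncoding transcripts, the nearest starting 168 bp from the peak, while its nearest coding TSS was 1783 bp away. The curdlan library was the deepest of the 3, both in ChIP tags and relative to its input. The part of depth in this call was not tested, and no fold can be given because the other lists hold no count there. At a p-value of 1e-10 or less this peak was lost and 5 Hox genes were marked with curdlan, the same number as in NT cells.

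A further weak peak near Hoxa11 was present in all lists, with 88, 95 and 95 tags, or 5.28 (4.24 to 6.51), 4.46 (3.61 to 5.45) and 4.88 (3.95 to 5.97) RPM. Its summit lay 3204 to 3320 bp upstream of Hoxa11, a gene of limb and uterus development, in an exon of the antisense gene Hoxa11as. Hoxa11 itself was therefore unmarked.

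Hoxa13, the most posterior HoxA gene, known for limb and genital development, had its peak just past the end of the cluster. The peak held 79 tags in NT cells, 156 with curdlan and 123 with curdlan and FK506, or 4.74 (3.75 to 5.91), 7.33 (6.22 to 8.57) and 6.32 (5.25 to 7.54) RPM. NT was lowest, and its interval did not overlap that of curdlan. The peak began 627 to 842 bp upstream of the Hoxa13 TSSs and covered the start of Gm15053, a noncoding gene transcribed away from Hoxa13. Its summit lay 310 to 490 bp from the start of Gm15053 and 1405 to 1585 bp from the nearest Hoxa13 TSS. Hoxa13 was thus marked through the edge of the peak.

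Hoxc6 was the only marked gene outside HoxA. The HoxC cluster spans 116 kb at chr15:102751534-102867274, and its single peak covered 2.11 kb, 1.77 kb and 2.06 kb. The peak held 298 tags in NT cells, 317 with curdlan and 294 with curdlan and FK506, or 17.9 (15.9 to 20.0), 14.9 (13.3 to 16.6) and 15.1 (13.4 to 16.9) RPM, with overlapping intervals. It lay in a Hoxc6 intron between a pair of TSSs at 102828688 and 102830960, 33 to 373 bp from the first and 101 to 131 bp from the second. The other TSS of Hoxc6, a gene of thoracic identity and mammary development, was 9051 to 9081 bp away.

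**Figure D3:**
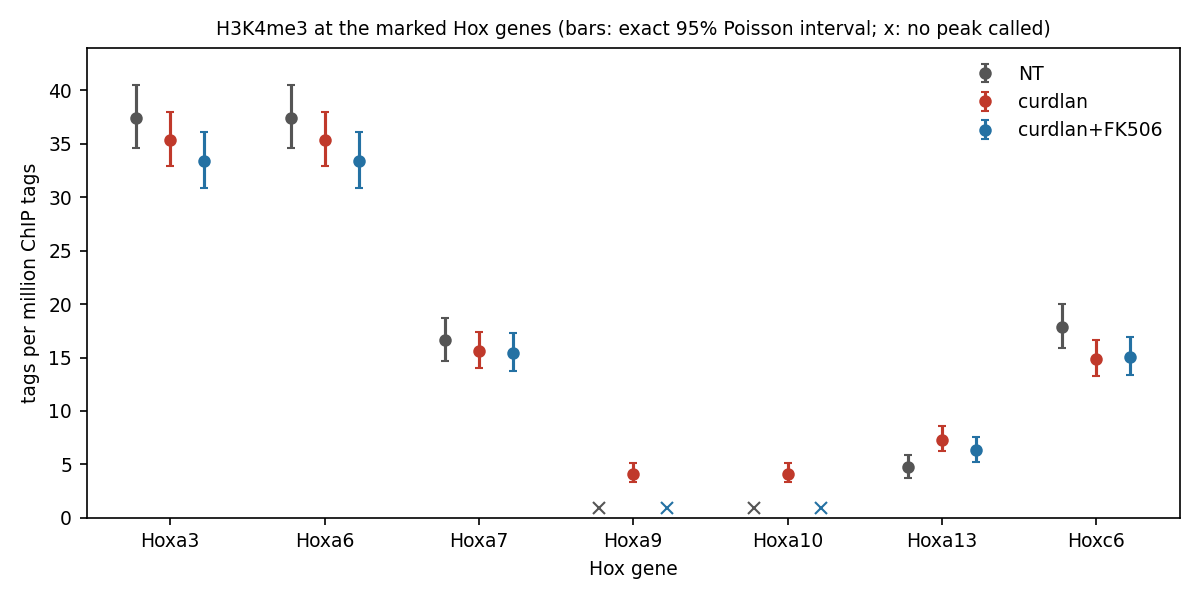
H3K4me3 tags per 1000000 ChIP tags (RPM, y axis) at the 7 marked Hox genes in NT, curdlan and curdlan with FK506 libraries. Points are single libraries, bars are exact 95% Poisson intervals of the tag count, and crosses drawn near 0 stand for no called peak and carry no value. Hoxa3 and Hoxa6 share a peak at 33.4 to 37.4, and Hoxa9 and Hoxa10 share one at 4.13 with curdlan only.

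HoxB and HoxD showed the mark least. The HoxB span of 174 kb at chr11:96055630-96229570 held 1 peak in each list, covering 1.40 kb, 1.60 kb and 1.84 kb, and none came within 1 kb of a HoxB TSS. HoxD, with 96.8 kb at chr2:74506367-74603200, held 0 peaks in every list. The nearest peaks to HoxD were 61.4 kb before it in NT cells, 88.2 kb before it in the treated cells, and 59.8 to 60.0 kb after it.

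The HoxB peaks were not the same one in the 3 lists. NT cells had a peak of 60 tags, or 3.60 RPM (2.75 to 4.64), and curdlan one of 78 tags, or 3.66 (2.90 to 4.57), at the same place downstream of Hoxb13. The FDR was 11.7% in NT cells and 2.51% with curdlan, so this is among the weakest calls of the lists. With curdlan and FK506 no peak was called there, and one of 110 tags, or 5.65 RPM (4.64 to 6.81), was called at chr11:96171817-96173653, 5235 bp upstream of Hoxb4. Hoxb4, which expands blood stem cells when added to them, was unmarked by the 1 kb rule. Whether either change lies beyond the spread between libraries was not tested.

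Over the 4 spans, peaks were shared by overlap as follows. All 5 peaks of NT cells (100%) overlapped a curdlan peak and 4 of them (80.0%) a peak with curdlan and FK506. Of the 6 curdlan peaks, 5 (83.3%) overlapped a peak of NT cells and 4 (66.7%) one with FK506. Of the 5 peaks with curdlan and FK506, 4 (80.0%) were found in each other list. The same overlap was not computed over all peaks of the lists, so these shares have no background. By gene, 5 of the 7 Hox genes marked in any list were marked in all 3, against 10704 of 11040 protein-coding genes. Hoxa9 and Hoxa10, the others, share a peak.

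The change between conditions was computed for the 5 Hox genes marked in both lists, as the log2 ratio of RPM less the median over all protein-coding genes marked in both. That median was -0.13 for curdlan over NT, -0.05 for curdlan with FK506 over curdlan and -0.18 for curdlan with FK506 over NT, so ratios below are relative to it. For fold enrichment in place of RPM the medians were 0.73, -0.27 and 0.45, and ratios of fold enrichment are relative to these. The 3 comparisons share libraries, and Hoxa3 and Hoxa6 share a peak and so count as 1 measurement.

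For curdlan over NT, Hoxa13 was higher by 0.75 on this log2 scale (95% exact binomial interval 0.36 to 1.16). This placed it at percentile 97.8 of the genes marked in both. The other values were close to the all-gene median: Hoxa3 and Hoxa6 0.05 (-0.11 to 0.20), Hoxa7 0.03 (-0.20 to 0.27) and Hoxc6 -0.14 (-0.37 to 0.10). Past a 1.5-fold limit, 1 Hox gene was higher and 0 lower, against 3.65% higher and 1.22% lower of 10773 genes. The median over the 5 genes was 0.05.

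The value of Hoxa13 also depended on the measure. Its called peak was longer with curdlan, 2130 bp against 1642 bp in NT cells and 1780 bp with curdlan and FK506. RPM per kb of peak was 2.89 in NT cells, 3.44 with curdlan and 3.55 with curdlan and FK506. With the fold enrichment over input in place of tags, the centred log2 ratio of curdlan over NT was 0.16. With the peaks of the lists merged into 1 stretch, the ratio of tags was 0.77 (0.37 to 1.18). Each list had 1 peak there, so this value reuses the same called-peak tags. Tags over a window of fixed length were not counted, because tags outside called peaks are not listed.

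For curdlan with FK506 over curdlan, the lowest value was that of Hoxa13, at -0.17 (-0.52 to 0.18), percentile 10.7 of marked genes. Hoxa3 and Hoxa6 were at -0.04 (-0.19 to 0.11), Hoxa7 at 0.03 (-0.20 to 0.26) and Hoxc6 at 0.07 (-0.17 to 0.30). Of the 5 genes, 0 passed 1.5-fold in either direction, against 0.381% higher and 1.14% lower of 10765 genes. Every interval included the all-gene median.

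For curdlan with FK506 over NT, Hoxa13 was at 0.59 (0.17 to 1.02). Hoxa3 and Hoxa6 were at 0.01 (-0.15 to 0.17), Hoxa7 at 0.07 (-0.17 to 0.31) and Hoxc6 at -0.07 (-0.30 to 0.17). Past 1.5-fold 1 Hox gene was higher and 0 lower, against 2.88% higher and 1.24% lower of 10758 genes. Hoxa13 passed the limit, a log2 value of 0.58, by little, and by centred fold enrichment its value was -0.14. Its fold enrichment before centring was 11.9 in NT cells and 14.9 with curdlan and FK506.

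**Figure D4:**
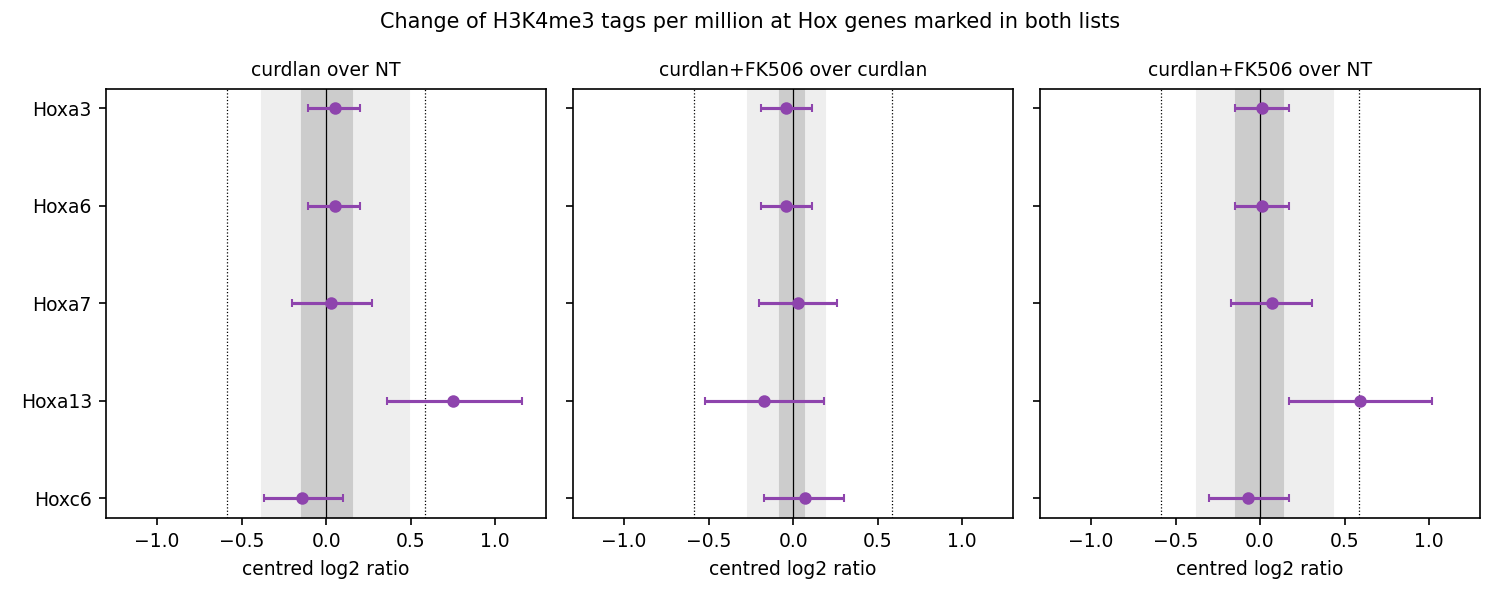
Centred log2 ratios of H3K4me3 RPM (x axes) at the 5 Hox genes marked in both lists, with exact 95% binomial counting intervals. Dark and light grey bands hold the middle 50% and 90% of all marked genes, and dotted lines are the 1.5-fold limits. Hoxa13 lies past the limit in curdlan over NT (0.75) and in curdlan with FK506 over NT (0.59), and the other genes lie within the limits in every comparison.

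Fold enrichment gave other directions at further genes. The authors' fold enrichment was 31.7, 126 and 46.3 at Hoxa7 and 19.1, 61.7 and 20.2 at Hoxc6 in NT, curdlan and curdlan with FK506. At Hoxa3 and Hoxa6 it was 33.3, 34.4 and 46.2, and at Hoxa13 11.9, 22.2 and 14.9. The high curdlan values at Hoxa7 and Hoxc6 had no counterpart in RPM. This ratio divides by the local input, and the inputs differed in depth. The part of the inputs in these values was not tested.

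The Hox clusters held a single NFATc2 summit. The 4 spans, 485 kb in all, gave a density for this 1 summit of 0.206 per 100 kb (95% exact Poisson interval 0.00522 to 1.15), against 0.355 per 100 kb over the genome. At the genome's rate 1.72 summits would fall in the spans, which is within the counting interval of 0.0253 to 5.57 around the 1 seen, so a lower density in the clusters was not detectable with this number of summits. HoxA, HoxC and HoxD held 0 summits each. The nearest summit outside was 91.8 kb away for HoxA, 335 kb for HoxB, 56.4 kb for HoxC and 185 kb for HoxD.

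The summit was in HoxB, at 96063973 in a peak at chr11:96063550-96064491. It is intergenic, 8343 bp downstream of the TSS of Hoxb13, a gene of tail and prostate identity, and 795 bp upstream of the noncoding gene Gm11538. The peak held 28 tags, or 1.95 RPM (1.29 to 2.81), with a 12.0-fold enrichment, a p-value of 5.4e-07 and an FDR of 0.880%, and its tag count stood at percentile 8.62 of the NFATc2 list. It overlapped the weak H3K4me3 peaks of NT and curdlan cells, and there was no H3K4me3 peak there with FK506.

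The 201 bp around that summit are shown because they are the single NFATc2 site of the clusters, at chr11:96063873-96064073 on the plus strand of mm9. Capitals mark GGAAAA, the core of the NFAT motif.
NFATc2 summit in HoxB: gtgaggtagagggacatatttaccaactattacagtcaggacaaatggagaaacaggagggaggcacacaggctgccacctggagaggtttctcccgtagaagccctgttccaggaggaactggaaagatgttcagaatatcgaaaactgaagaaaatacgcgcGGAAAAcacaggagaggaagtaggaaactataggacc
The window held 1 copy of GGAAAA, 64 bp from the summit, and 0 of its reverse complement TTTTCC. Further copies lay 172 bp and 347 bp from the summit within the same peak, all on the plus strand. A copy on either strand within 100 bp was found at 45.6% of the 9438 NFATc2 summits and in 18.0% of 18876 windows 1 kb to each side.

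By gene, 1 of 38 Hox genes (2.63%), Hoxb13, had a TSS with an NFATc2 summit at 30 kb or less, against 30.2% of all protein-coding genes. Within 10 kb it was again 1 gene (2.63%) against 16.3%, and within 100 kb 10 genes (26.3%) against 55.4%. Genes of a cluster share the same distances to summits, so these are not 38 independent values.

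Of 15 neighbours of the clusters found in the annotation, 10 were marked in every list (66.7%, Wilson interval 41.7 to 84.8), an interval that includes the 49.0% of all genes in NT cells. They were Skap2 and Hibadh beside HoxA, Snx11 and Cbx1 beside HoxB, Calcoco1, Cbx5, Hnrnpa1 and Atp5g2 beside HoxC, and Mtx2 and Lnp beside HoxD. The marked neighbours ranged from 20.0 to 144 RPM in NT cells, and Cbx5 and Hnrnpa1 shared their peaks. The unmarked ones were Evx1 and Evx2, homeobox genes at the ends of HoxA and HoxD, with Skap1, Ttll6 and Smug1. None of the 10 passed 1.5-fold in any comparison. Of all genes marked in both lists, 0.381% to 3.65% did so in a given direction, so this count does not set the neighbours apart.

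Of 8 TALE genes, which encode cofactors of Hox proteins, 6 were marked in NT cells (Wilson interval 40.9% to 92.9%), 5 with curdlan (30.6% to 86.3%) and 6 with curdlan and FK506 (40.9% to 92.9%). These intervals include the shares of all genes, 49.0%, 48.9% and 48.8%. Meis1, which binds DNA with Hoxa9 in progenitors, had 134, 96.3 and 109 RPM. Pbx2 had 161, 124 and 125, Pbx3 57.7, 47.6 and 47.6, and Pknox1 44.5, 43.0 and 38.7. Meis3 had 20.1, 29.8 and 23.0, and its centred log2 ratio of curdlan over NT, 0.69, was the only one past 1.5-fold. Of 10773 genes, 3.65% were higher by this limit in that comparison. Pbx4 had 5.40 in NT cells, no peak with curdlan and 4.93 with FK506, while Meis2 and Pknox2 were unmarked.

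Genes for Trithorax, MLL and Polycomb complexes were marked almost throughout. The shares of all protein-coding genes were 49.0% in NT cells, 48.9% with curdlan and 48.8% with curdlan and FK506. All 18 Trithorax and MLL complex genes were marked in every list. Of 27 Polycomb genes, 27 were marked in NT cells and 26 in each treated list, the exception being Cbx6. Of the 2 H3K27 demethylase genes, Kdm6a was marked in every list and Kdm6b in the treated lists only.

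Few homeobox genes outside the clusters were marked. Of 62 other homeobox developmental regulators, 7 were marked in NT cells (11.3%, Wilson interval 5.58 to 21.5), 8 with curdlan (12.9%) and 7 with curdlan and FK506 (11.3%). Pax6, Nkx3-2, Otx1, En2, Irx5, Pitx3 and Isl2 were marked in all lists and Lhx9 with curdlan. Of the 6 ParaHox and Cdx genes, the closest relatives of the Hox genes, Gsx1 alone was marked.

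**Figure D5:**
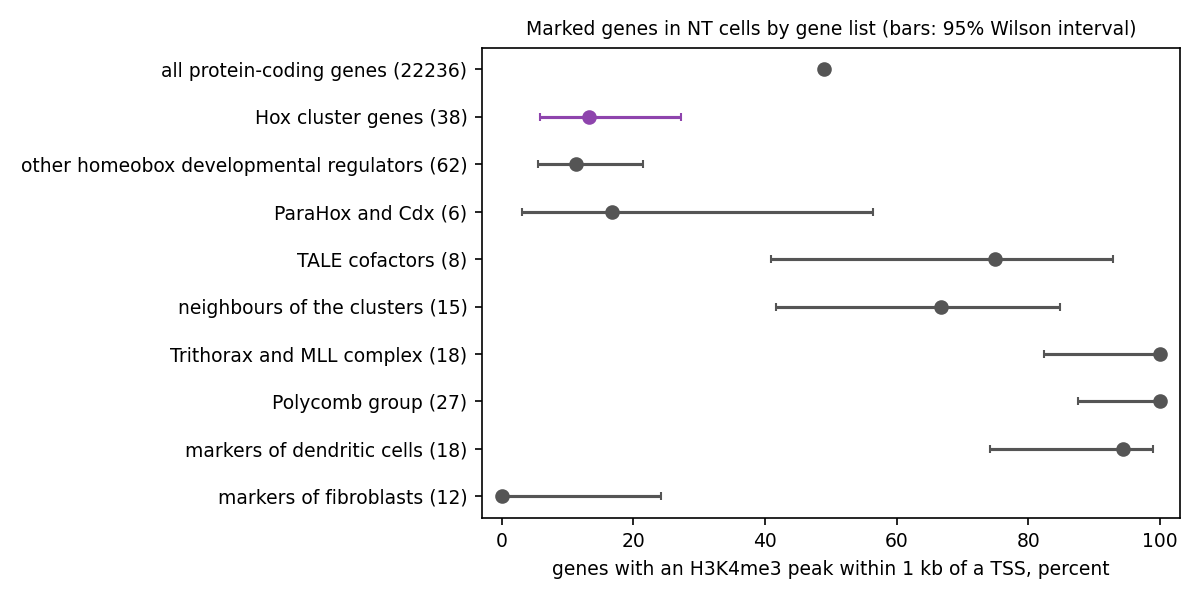
Percent of genes with an H3K4me3 peak within 1 kb of a TSS in NT cells (x axis) for each gene list, with the number of genes in brackets and 95% Wilson intervals as bars. Hox genes (13.2%) and other homeobox regulators (11.3%) lie below all protein-coding genes (49.0%), whereas Trithorax, Polycomb and DC marker genes lie above them.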

How the data were processed

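ChIP-seq peak lists of 4 experiments on D1 cells were used, 1 library per condition. The authors aligned single-end reads to mm9 using Bowtie, then called peaks library by library against the matching input in MACS (version 1.4.2 per the file headers). The headers set p at 1e-05, allow 1 tag per position, and give the band width as 1000 bp in the H3K4me3 lists and 300 bp in the NFATc2 list. The deposited lists give raw tag counts per peak, a score of -10 times log10 of the p-value, the fold enrichment as a ratio to the local input, and the FDR in percent.

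Genes and TSSs came from the Ensembl release 65 annotation of mm9, with 38 Hox symbols in 39 gene records because Hoxa3 has 2. Of the genes in the lists, 2 are not reported here and were left out of all counts. Sequences were read from the mm9 genome. Tag counts of peaks within 1 kb of a TSS were divided by the header total of ChIP tags and multiplied by 1000000 (RPM), so that 3 tags correspond to 0.180, 0.141 and 0.154 RPM in the H3K4me3 lists. Depth sets the counting error of each value and also bears on which peaks are called. Intervals are exact Poisson for counts, exact binomial for ratios and Wilson for shares. The fold limit of 1.5 is the one the study used for expression. A cluster span runs from the lowest start to the highest end of its genes.

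The other Hox genes were all counted, those with a peak in any list were described one by one, and of the other lists the cluster neighbours, the TALE cofactors and genes needed to name a count of 5 or fewer were named. The marked genes of the list of other homeobox regulators were named after their values were seen. The neighbour Prac was not found in the annotation. Members and lists were chosen with earlier results of these data known. The assignment, covered length, fold calls and intervals passed 4 of 4 tests on simulated data with 2000 genes. Alternatives for the p-value, FDR, distance, TSS set, span, overlap, denominator, centring, measure and fold were tried. The work used scipy 1.17.1, pandas 2.3.3, numpy 2.4.6 and matplotlib 3.10.9 under Python 3.11.15.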

Additional observations from a re-analysis of the deposited data

How the results depend on the processing

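Among values that answer a comparison, 81 of 105 alternatives stayed close to the value reported and 24 did not. With the summit rather than the peak required within 1 kb, the marked Hox genes were 3 in NT cells, 4 with curdlan and 3 with curdlan and FK506, and at 5 kb they were 8 in NT cells and 9 with FK506. With the HoxA span extended by 10 kb, peaks covered 11.1 kb, 12.7 kb and 11.8 kb. At a p-value of 1e-10 or less, the marked genes with curdlan fell from 7 to 5, without Hoxa9 and Hoxa10, the same number as in NT cells. Within 500 bp, or with coding TSSs only, they were 5 with curdlan and 4 in NT cells. Hoxa13 was not among the marked genes within 500 bp or by summit. At the p-value limit of 1e-10 HoxA had 5.09 kb covered with curdlan, NT and curdlan shared 3 peaks, HoxB had 0 kb covered in NT and curdlan cells and the clusters held 0 NFATc2 summits, and at an FDR of 5% or less HoxB had 0 kb covered in NT cells. At a fold of 2, 0 Hox genes were higher for curdlan over NT and 0 for curdlan with FK506 over NT. Without centring, the median of the latter was -0.17, with 0 genes higher. By centred fold enrichment, curdlan over NT had 2 genes higher, Hoxa7 and Hoxc6, and 2 lower, Hoxa3 and Hoxa6. Curdlan with FK506 over curdlan had the same pairs the other way, 2 higher and 2 lower, with a median of -0.31. Curdlan with FK506 over NT had 0 higher. Hoxa3 and Hoxa6 share 1 peak and count as 1 measurement. Their fold enrichment was 33.3 in NT cells and 34.4 with curdlan, so they were lower only after centring. The shares of all genes past the limit by fold enrichment were not computed. By fold enrichment Hoxa13 was at -0.14 for curdlan with FK506 over NT, opposite in sign to its value by tags. That sign comes from centring on an all-gene median of 0.45, since the fold enrichment itself was 11.9 in NT cells and 14.9 with curdlan and FK506. The cause of the changes between settings was not tested. Of 90 alternatives for single genes, 77 stayed close, 12 moved and 1 reversed. Many alternatives could hardly move a value. Centring cancels a change of denominator, and merged regions, the top peak and the p-value limit reuse the tags of the same called peaks. A stricter limit also cannot move the 0 kb covered in HoxD. The numbers of alternatives that stayed close are therefore no measure of robustness.

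No paired analysis was possible because each condition had 1 ChIP library, and there was no replicate to leave out. Calls near 100 tags or fewer (Hoxa9, Hoxa10, Hoxa13 in NT cells, the peak near Hoxa11 and the HoxB peaks) rest on shallow counts, and tags outside called peaks are not listed.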

Other observations

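The clusters also hold noncoding genes. The shares over all microRNA and other noncoding genes of the annotation were not computed, so the counts below have no background. None of the 6 microRNA genes of the spans had its start within 1 kb of an H3K4me3 peak in any list (0 of 6). Mir196b, beside Hoxa9, was 1675 bp from the peak called with curdlan and 7587 bp from the nearest in NT cells. Mir10a, beside Hoxb4, was 4826 bp from the peak called with curdlan and FK506 and 113659 bp from the nearest in NT cells. Mir10b, in HoxD, was 98901 to 99095 bp from a peak.

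Of 20 other noncoding genes and pseudogenes in or at the edge of the spans, 4 came within 1 kb of a peak. Among them, Gm15051 beside Hoxa2 and Gm15053 beside Hoxa13 each had a start under a peak in all lists. A start of Hoxa11as was 300 to 362 bp from a peak. The start of Gm11538, beside Hoxb13, was under a peak in NT and curdlan cells and 107049 bp from the nearest with curdlan and FK506. At Gm15051, Hoxa11as and Gm11538 the neighbouring Hox genes were themselves unmarked, whereas the peak at Gm15053 also met the 1 kb rule for Hoxa13. Its summit lay 310 to 490 bp from the start of Gm15053 and 1405 to 1585 bp from the nearest Hoxa13 TSS. To which gene this mark belongs was not tested.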
